A study of Mus musculus with 19 samples.

Results

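The 41 genes described here are cell cycle and proliferation genes, from the cyclins and cyclin-dependent kinases of G1 through the replication machinery to the mitotic kinases, with cyclin F (Ccnf) and the recombination gene Rad51b added to them. They were taken from the deposited table by gene symbol. The table held 40 of the 41 among its 21749 genes, and Bub1 was not analysed here. Members whose mean log2 value over all libraries lay under 3.32, which is 10 before the log, were set apart as scarce. There were 7 of these: Cdc6 (1.24), Ccnb2 (2.05), Bub1b (2.56), Aurkb (2.71), Mki67 (2.86), Plk1 (2.91) and Rad51b (3.09). Rad51b lay just inside that limit, and Ccnb1 (3.34) and Cdk1 (3.35) lay just outside it.

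The libraries hold messenger RNA bound to EGFP-tagged ribosomal protein Rpl10a in brain of mice that carry Tg(Aldh1l1-EGFP/Rpl10a)JD130Htz/J on a mixed B6;FVB background, where sequence of the astrocyte gene Aldh1l1 drives the tag. This pull-down is called translating ribosome affinity purification. All animals, male and female, carried this transgene, and the females were collected at 09:00. The 4 groups were Metestrus (8 libraries), Pro-Day, called proestrus here (3 libraries), Estrus (4 libraries) and Males (4 libraries). The ages of the mice were not used here. Batches 2 and 3 held every proestrus and estrus library with 3 of metestrus, and batch 4 held the 4 of males with the other 5 of metestrus. The labels do not state whether a library is a separate animal, so p-values measure the spread between libraries, which may be technical. The tested cells are labelled astrocytes, and the summed level of 10 astrocyte markers ran from 17.77 to 18.71 over the 19 libraries. Markers of other cells were present too: 8 neuron markers summed to 16.17 to 17.12 and 6 oligodendrocyte markers to 14.17 to 15.12.

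Cells enter the cycle when D-type cyclins with Cdk4 and Cdk6 phosphorylate the retinoblastoma protein, which frees E2F factors to switch on cyclin E, the MCM helicase and the enzymes of nucleotide synthesis. Cyclin A2 and cyclin B with Cdk1 then carry the cell through G2 and mitosis, together with the Aurora and Polo kinases. Cyclin F is the founding F-box protein. It binds no cyclin-dependent kinase and instead selects proteins for degradation by an SCF ubiquitin ligase, among them the ribonucleotide reductase subunit encoded by Rrm2 and the licensing factor encoded by Cdc6. Most astrocytes of the adult brain do not divide, while progenitors of the oligodendrocyte lineage continue to do so. Many G2 and mitotic genes carry a short element, TTTGAA, named the cell cycle genes homology region, near CCAAT boxes in their promoters.

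Promoters of 5 members with large differences between the stages are printed here because Ccnf, Top2a, Mki67 and Cdk1 share both elements and Rad51b does not. The 5 were picked with their values known, and a link between elements and levels was not tested. Each run is the 250 bases before the transcription start, 5′ to 3′ on the gene's strand, from RefSeq on GRCm38.p6. Capitals mark TTTGAA and CCAAT on either strand, so that TTCAAA and ATTGG are their reverse complements.
Ccnf promoter, chr17:24251410-24251659, minus strand: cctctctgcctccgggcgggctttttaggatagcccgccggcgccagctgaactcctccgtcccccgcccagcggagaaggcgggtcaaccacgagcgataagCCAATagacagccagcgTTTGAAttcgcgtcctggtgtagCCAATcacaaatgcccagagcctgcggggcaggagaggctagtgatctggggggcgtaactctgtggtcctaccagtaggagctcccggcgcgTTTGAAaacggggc
Top2a promoter, chr11:99024190-99024439, minus strand: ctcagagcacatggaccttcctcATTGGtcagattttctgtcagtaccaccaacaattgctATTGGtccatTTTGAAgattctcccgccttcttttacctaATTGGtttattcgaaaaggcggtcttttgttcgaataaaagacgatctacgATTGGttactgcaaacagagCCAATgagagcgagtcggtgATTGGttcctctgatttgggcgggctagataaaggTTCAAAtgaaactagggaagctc
Mki67 promoter, chr7:135716380-135716629, minus strand: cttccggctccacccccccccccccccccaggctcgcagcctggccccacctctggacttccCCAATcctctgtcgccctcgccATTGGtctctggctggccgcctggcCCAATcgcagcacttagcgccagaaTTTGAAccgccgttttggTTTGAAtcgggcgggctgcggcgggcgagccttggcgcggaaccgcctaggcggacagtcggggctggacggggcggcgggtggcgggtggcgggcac
Cdk1 promoter, chr10:69352913-69353162, minus strand: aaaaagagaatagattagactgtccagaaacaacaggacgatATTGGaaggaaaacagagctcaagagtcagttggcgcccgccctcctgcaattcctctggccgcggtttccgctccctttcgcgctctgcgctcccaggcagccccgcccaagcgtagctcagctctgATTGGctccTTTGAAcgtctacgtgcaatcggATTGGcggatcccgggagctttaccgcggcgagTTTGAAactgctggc
Rad51b promoter, chr12:79297032-79297281, plus strand: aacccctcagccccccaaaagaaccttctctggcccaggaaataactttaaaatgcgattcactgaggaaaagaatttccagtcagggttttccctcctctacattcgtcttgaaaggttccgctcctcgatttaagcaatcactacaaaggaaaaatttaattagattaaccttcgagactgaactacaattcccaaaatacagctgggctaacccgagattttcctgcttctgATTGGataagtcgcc
The Ccnf, Mki67 and Cdk1 promoters each hold TTTGAA at 2 places, and the Top2a promoter holds it at 2 places beside 6 CCAAT boxes. The Rad51b promoter holds 0 TTTGAA and 1 CCAAT.

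RefSeq gave promoters for 34 of the 41 members, with 39 starts among them. TTTGAA occurred on either strand in 8 of the 39 (20.5%) and in 15.99% of all 32851 promoters in that table. The 8 belonged to Ccnf, Cdc45, Mcm2, Ccnb2, Cdk1, Cdc20, Mki67 and Top2a, and all 8 held CCAAT as well. That pair of elements was found in 5.55% of all promoters. CCAAT alone was counted in 66.7% of the member promoters and in 33.9% of all. The E2F-type motifs TTTCCCGC, TTTGGCGC, TTTGGCGG and TTTCGCGC were searched on both strands. At least 1 of them stood in 6 of the 39 (15.4%), against 1.96% of all promoters, and these belonged to Cdk2, Cdc6, Mcm5, Mcm6, Mcm7 and Cdk1. A match describes these letters and does not locate a bound site.

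The deposited values are log2 values that were given without counts, so the depth of each library is unknown. Raised to powers of 2 they sum to between 19838000 and 25609600 per library. The table lacks some of the variation between libraries: once gene means are taken out, the 19 columns fill 14 of 18 possible dimensions, with the differences between groups kept. The test therefore counted 11 residual degrees of freedom. All 40 members passed the filter of 3.32 or more in at least 3 libraries, as did 20644 genes (94.9%). Aurkb passed it through 3 proestrus and 2 estrus libraries only. Bub1b passed only with metestrus counted. Ccnb2 needed estrus, males and metestrus for this, and Cdc6 needed estrus, metestrus and proestrus.

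The first role is that of the G1 cyclins and kinases. Ccnd2, Cdk4 and Ccnd3 had the highest mean log2 values of all members, at 12.48, 11.67 and 11.44, and Ccnd1 followed Pcna and Rb1 at 10.35. Divided by the length of their exons, the mean log2 value per kilobase was 9.97 for Cdk4, 9.52 for Pcna and 9.25 for Ccnd2. Ccnd2, a D-type cyclin, read 12.27, 12.18 and 12.62 in proestrus, 12.54, 12.23, 12.997 and 12.21 in estrus and 12.99, 12.53, 12.47 and 12.75 in males. In metestrus it ran from 12.26 through a median of 12.37 to 12.68. These ranges overlapped in all 4 groups. Cdk6, the partner kinase of Cdk4, was far lower per kilobase, at 1.70, and its mean log2 value was 5.51. Ccne1 (7.71), Cdk2 (6.87) and Ccne2 (6.54), which act at the start of S phase, lay between.

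Among the brakes of the cycle, Rb1 stood at a mean log2 value of 10.39. Cdkn2c, the Cdk4 and Cdk6 inhibitor p18, stood at 9.78, Cdkn1a, the inhibitor p21, at 9.49 and Cdkn1b, the inhibitor p27, at 9.06. E2f1, the activating E2F factor, had a mean of 7.996. Their SD within groups was 0.26 for Rb1 and 0.38 for Cdkn1a, the tightest and the widest of these 5 genes. The lowest reading of any of the 5 in any library was 7.44, for E2f1 in Metestrus replicate 6.

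Replication genes covered the widest span of levels. Pcna, the sliding clamp of the replication fork, averaged 10.78. The 6 subunits of the MCM helicase ran from 5.88 for Mcm5 to 7.66 for Mcm7, with Mcm4 at 7.49, Mcm6 at 6.52, Mcm3 at 6.07 and Mcm2 at 5.97. Cdc45, which joins MCM in the active helicase, averaged 5.95 and Cdt1, which loads it, 5.02. Cdc6, the other loading factor, was the lowest of all 40 members at 1.24. The nucleotide supply genes Rrm1, Tyms and Rrm2 averaged 8.13, 6.85 and 6.82.

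G2 and mitotic genes were the low end of the set. Ccna2 averaged 4.97, Aurka 4.90, Cdk1 3.35 and Ccnb1 3.34, and the scarce members Plk1, Aurkb and Ccnb2 lay below them. Birc5, the survivin subunit of the chromosomal passenger complex, averaged 4.96 and Cdc20, an activator of the anaphase-promoting complex, 4.20. Bub1b, a spindle checkpoint kinase, averaged 2.56. Top2a, the topoisomerase that untangles sister chromatids, stood at 4.55 and Mki67, the antigen Ki-67 used to mark dividing cells, at 2.86. Per kilobase of exon Mki67 lay at -0.47 and Top2a at 1.38.

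**Figure D1:**
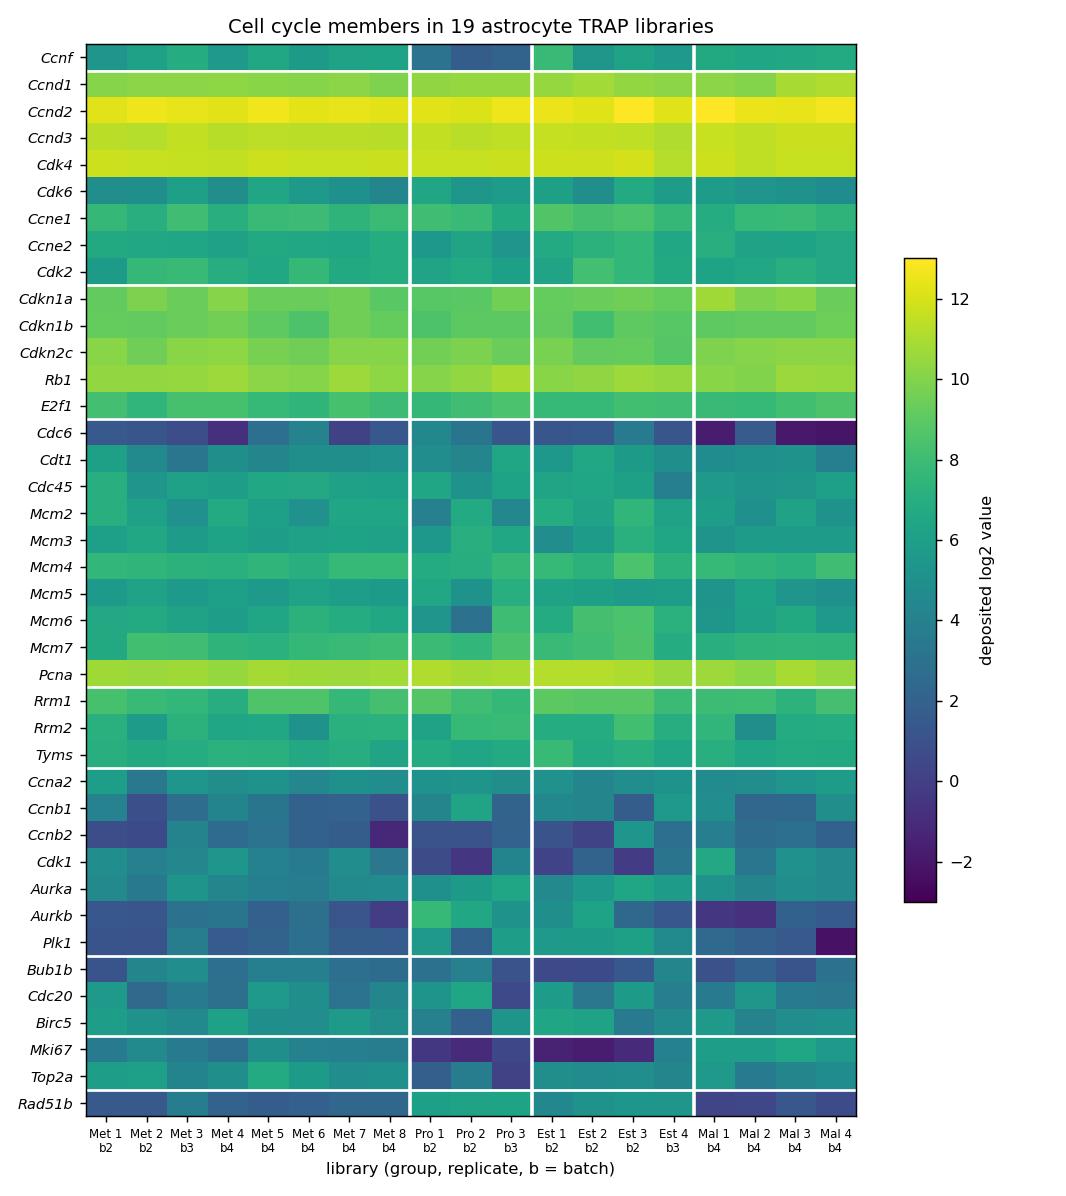
Deposited log2 values (colour) of the 40 members (rows, grouped by role) in each of the 19 libraries (columns, with group, replicate and batch). Ccnd2, Ccnd3, Cdk4 and Pcna are bright in every column, Ccnf is dark in the 3 proestrus columns (1.70 to 3.07), and Mki67 is dark in all proestrus and in 3 of 4 estrus columns.

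No library was high or low across the whole set. Estrus replicate 4, the batch 3 library of its group, was the lowest of the 4 for 18 of 40 members and the highest for 5. Estrus replicate 3 was the highest for 18 and the lowest for 4. Males replicate 2 was the lowest of its group for 18 members and Proestrus replicate 3, from batch 3, was the highest of its group for 18. Fewer cells of a type and less RNA per cell cannot be told apart in such pooled samples.

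Libraries of a group spread more where a gene was low. The 7 scarce members had a median SD within groups of 1.42, against 1.38 for all tested genes of that level. For the 9 members with a mean over 9 the median SD was 0.26, against 0.27 for all such genes. In the class from the limit to 6 it was 0.77 for 13 members and 0.93 for all genes. In the class from 6 to 9 it was 0.49 for 11 members and 0.41 for all genes. Mcm6 was the widest of that class at 1.05, and Cdc20 had the largest SD of all members, 1.59. Rad51b had the smallest SD of the scarce members, 0.57.

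**Figure D2:**
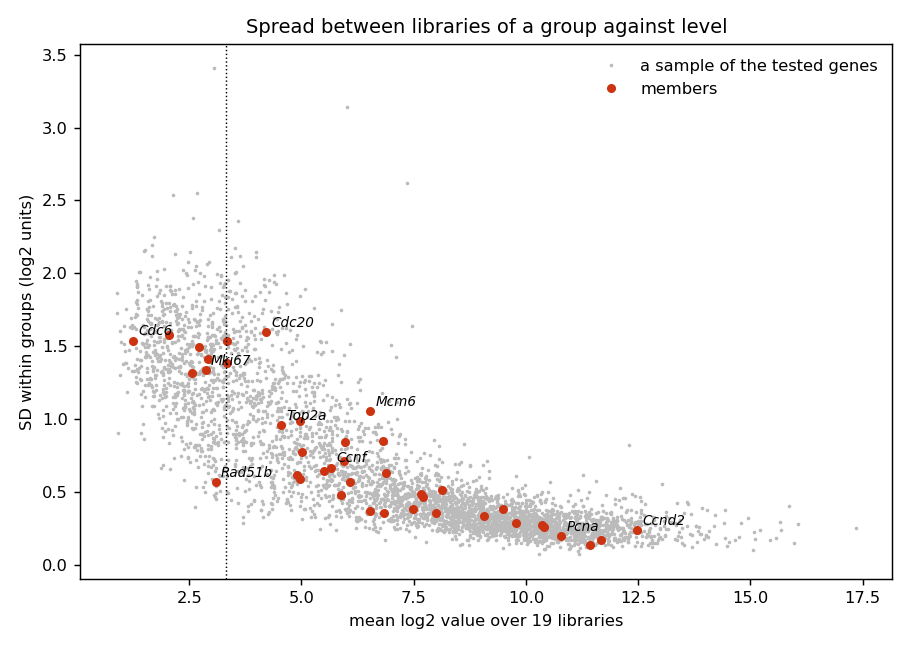
SD between libraries within groups (y axis, log2 units) against the mean log2 value over 19 libraries (x axis) for the members (red) and a sample of the tested genes (grey), with a dotted line at the limit of 3.32. Members lie within the grey cloud, with Mcm6 (1.05) near its upper edge and Rad51b (0.57) near its lower edge.

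Proestrus was first compared with metestrus, to ask whether the genes differ between these days of the estrous cycle. In all stage comparisons, ranges and overlaps used all 8 metestrus libraries, 5 of them in batch 4. The fitted differences rest on batches 2 and 3. Ccnf was lower in every proestrus library than in every other library, and Top2a fell in proestrus. Mki67 was also low in all 3 proestrus libraries without passing the test, while the G1 cyclins, their inhibitors and Pcna lay within 1 log2 unit of metestrus. Rad51b stood apart in the opposite direction.

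Ccnf (ENSMUSG00000072082.8) read 3.07, 1.70 and 2.09 in proestrus, and 5.35, 6.18 and 6.93 as the lowest, median and highest of metestrus. It read 7.86, 5.48, 6.25 and 5.58 in estrus and 6.74, 6.45, 6.62 and 6.80 in males. All 3 proestrus values lay under the limit of 3.32 and all 16 others lay over it. The fitted log2 difference of proestrus from metestrus was -3.86 ± 0.63 (SE), or -3.37 within batch 2 and -4.84 within batch 3. With values under 3.32 raised to it the difference was -2.83. Ccnf joined the set for this change, so these values are a description and were not tested again.

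Rad51b (ENSMUSG00000059060.16), a gene of the repair of DNA breaks by homologous recombination, read 6.06, 6.22 and 6.27 in proestrus. Metestrus ran from 1.49 through a median of 2.01 to 3.72, where the highest was replicate 3, the only batch 3 library of that group. The groups did not overlap, and the log2 difference was 3.95 ± 0.79 (SE), with 4.65 within batch 2 and 2.56 within batch 3. With low values raised to the limit it was 2.73. Rad51b is no gene of the cycle itself and was evidently included for its change, so it was treated as Ccnf was, without a test between stages.

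Of the other 38 members, 1 passed the test in limma and it was lower, where 0.363% of all tested genes passed (0.286% lower and 0.0775% higher). These are 59 lower and 16 higher genes, and with values under 3.32 raised to it 100 genes passed, 25 lower and 75 higher. The member was Top2a (ENSMUSG00000020914.18), which read 1.85, 3.74 and 0.11 in proestrus. In metestrus it ran from 4.20 through a median of 5.38 to 6.79. The groups did not overlap, and Proestrus replicate 2 was the nearest to metestrus. Top2a fell by 3.49 on the log2 scale (SE 0.77, Benjamini-Hochberg adjusted p = 0.0499), with -3.19 within batch 2 and -4.09 within batch 3. The call is at the threshold: it was lost in 5 of the fits that left out 1 library, for example at an adjusted p of 0.138 without Proestrus replicate 1, and with values under 3.32 raised to it (-1.93, adjusted p = 0.268).

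Mki67 read -0.39, -1.11 and 0.49 in proestrus, against a metestrus range from 2.87 through 3.86 to 4.95. The groups did not overlap, all 3 proestrus values lay under the limit, and 7 of 8 metestrus values lay over it. The log2 difference was -4.31 ± 1.05 (SE, adjusted p = 0.0841). It was -4.88 within batch 2 and -3.18 within batch 3. Leaving out Metestrus replicate 3 gave -5.62 with an adjusted p of 0.0320.

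Cdk1, the mitotic kinase, read 0.65 and -0.49 in the proestrus libraries of batch 2 and 4.22 in that of batch 3, which is inside the metestrus range from 3.36 through 4.23 to 5.39. Its difference was -2.95 ± 1.04 (SE, adjusted p = 0.301), with -4.32 within batch 2 and -0.21 within batch 3. The batches differed in the same way for Birc5 (-2.64 and 0.67) and Mcm6 (-2.51 and 1.85). The fitted difference was -1.54 ± 0.85 (SE, adjusted p = 0.573) for Birc5 and -1.06 ± 0.78 (SE, adjusted p = 0.700) for Mcm6. Proestrus replicate 3 was the highest proestrus library for all 3 genes.

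Among the mitotic kinases, Aurkb, the kinase of the chromosomal passenger complex, read 7.69, 6.58 and 5.13 in proestrus. Its metestrus values ran from -0.11 through 1.61 to 3.21, all under the limit, and the groups did not overlap. The difference was 4.57 ± 1.25 (SE), and 3.15 once low values were raised to the limit. Aurkb passed the filter through the libraries in which it was high, so these values are a description with no test. Plk1, the Polo kinase of mitotic entry, read 5.57, 1.94 and 5.999 against a metestrus range from 1.10 through 1.71 to 3.75, at 2.49 ± 1.20 (SE, adjusted p = 0.499). Aurka, the spindle pole kinase, read 5.02, 5.69 and 6.48 against 3.45 through 4.45 to 5.27, at 1.31 ± 0.63 (SE, adjusted p = 0.498). Ccnb1, cyclin B1, read 4.33, 6.33 and 2.08 against 0.92 through 2.40 to 4.20, at 1.66 ± 1.28 (SE, adjusted p = 0.714). The ranges of Plk1, Aurka and Ccnb1 overlapped those of metestrus. Of the 12 members that act in G2 and mitosis or mark dividing cells, 6 were positive (Ccnb1, Aurka, Aurkb, Plk1, Ccna2 and Cdc20) and 6 negative (Cdk1, Birc5, Mki67, Top2a, Ccnb2 and Bub1b), and of these Top2a alone passed. Ccnb1 turned to -0.67 within batch 3, as Birc5 turned to 0.67.

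**Figure D3:**
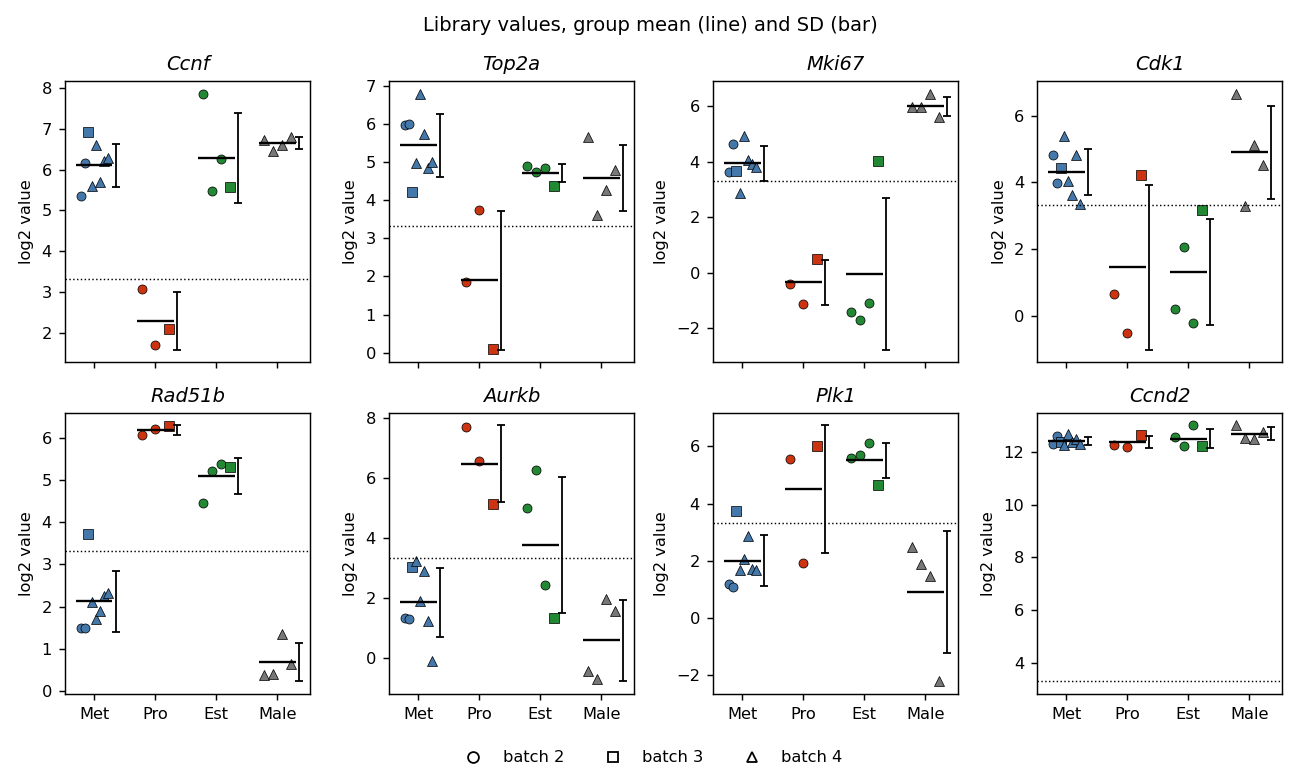
Log2 value (y axis) of 8 members in every library by group (x axis), with shapes for batch, a line at the group mean, a bar of 1 SD and a dotted line at 3.32. Ccnf is low in proestrus alone, Top2a is lowest there, Mki67 is low in proestrus and in the 3 estrus libraries of batch 2, Rad51b and Aurkb are highest in proestrus, and Ccnd2 is level.

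Elsewhere no difference passed the test, and the lowest adjusted p of the G1 cyclins and kinases in limma was 0.528. The 8 G1 cyclins and kinases ran from -0.80 for Ccne2 to 0.64 for Cdk6 (SE 0.63), and the 5 inhibitors, Rb and E2F genes from -0.42 for Cdkn1b to 0.04 for Rb1 (SE 0.23). Cdkn1a stood at -0.36 ± 0.32 (SE) and Cdkn2c at -0.39 ± 0.26 (SE). Pcna read 11.07, 10.84 and 10.94 against 10.45 through 10.72 to 10.84, groups that did not overlap by a small margin, at 0.26 ± 0.20 (SE, adjusted p = 0.716). Cdc45 stood at -0.25 ± 0.61 (SE), Mcm3 at 0.26 ± 0.55 (SE), Rrm1 at 0.24 ± 0.38 (SE) and Ccna2 at 0.20 ± 0.65 (SE). Rrm2 and Cdc6, whose proteins cyclin F targets, stood at 0.51 and 1.81. The adjusted p was 0.854 for Rrm2, while Cdc6 needed proestrus, where it was higher, to pass the filter and has no test.

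Over the 38 members the signs were 19 positive and 19 negative, with a median log2 difference of 0.01 against -0.09 for all tested genes. An unadjusted p under 0.05 was found for 4 members and for 10.1% of all genes. Aurkb is among these 4 and in the next count, and in both it is a description with no test. Groups did not overlap with proestrus higher for 3 members (Aurkb, Pcna and Ccnd1; 3.30% of all genes) and with proestrus lower for 2 (Mki67 and Top2a; 5.43% of all genes). Within the batches, 19 of the 38 had the same sign in batch 2 and batch 3. Batch 3 holds 1 library of each stage.

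From proestrus to estrus the comparison shares the 3 proestrus libraries with the one above, so the 2 are not independent. Ccnf was higher in every estrus library than in any of proestrus. Of the other 38 members 0 passed, where 0.252% of all tested genes did (0.203% higher and 0.0484% lower). Top2a, Ccne2 and Mcm6 had the largest positive differences relative to their errors.

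For Ccnf the log2 difference of estrus from proestrus was 4.00 ± 0.59 (SE), with 4.14 within batch 2 and 3.48 within batch 3, and 2.97 with low values raised to the limit. Top2a read 4.90, 4.74, 4.84 and 4.37 in estrus, a narrow range over that of proestrus. Its difference was 2.68 ± 0.72 (SE, adjusted p = 0.128), with 2.03 and 4.26 within batches 2 and 3. Ccne2, cyclin E2, read 6.79, 7.30, 7.60 and 6.53 in estrus and 5.52, 6.37 and 5.41 in proestrus, which did not overlap. It stood at 1.25 ± 0.38 (SE, adjusted p = 0.174), and the batches gave 1.29 and 1.12. Rad51b read 4.46, 5.22, 5.38 and 5.32 in estrus, all under its proestrus values, at -1.02 ± 0.74 (SE).

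Mcm6 read 6.84, 8.28, 8.496 and 7.19 in estrus against 5.37, 3.02 and 8.06 in proestrus, where the high value is replicate 3. The ranges overlapped, and its difference was 2.29 ± 0.73 (SE, adjusted p = 0.195), with 3.67 within batch 2 and -0.86 within batch 3. Without Proestrus replicate 3 it was 3.65 with an adjusted p of 0.0101. Mcm2 stood at 1.59 ± 0.61 (SE, adjusted p = 0.300), while Mcm3 stood at -0.35 ± 0.52 (SE) and Cdc45 at -0.32 ± 0.57 (SE). Estrus replicate 4 was far under the other estrus libraries for Cdc45, at 3.90 against 6.07 to 6.47. Aurkb read 4.99, 6.26, 2.43 and 1.33 in estrus and stood at -2.82 ± 1.18 (SE). Mki67 and Cdk1, low in both stages within batch 2, stood at 0.48 ± 0.99 (SE) and 0.04 ± 0.98 (SE). Birc5 stood at 1.52 ± 0.80 (SE) and Cdkn2c at -0.36 ± 0.24 (SE).

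Signs over the 38 members were 23 positive and 15 negative, with a median of 0.04 against 0.02 for all tested genes. An unadjusted p under 0.05 was found for 5, against 11.5% of all genes. Aurkb is among the 5, again as a description with no test. Groups did not overlap for 2, both higher in estrus (Top2a and Ccne2), against 4.43% of all genes, and for 0 lower, against 4.64%. The sign was the same in both batches for 11 of 38: in batch 2 there were 28 positive differences and in batch 3 there were 25 negative.

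Estrus was then set against metestrus. Ccnf did not pass, and the groups overlapped widely. Mki67 and Cdk1 had the largest negative differences and Plk1 the largest positive, without passing the test. Of all tested genes 0 passed in limma (0%), while 8.31% had an unadjusted p under 0.05, as did 5 of the 38 members.

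The log2 difference of Ccnf was 0.14 ± 0.59 (SE, adjusted p = 0.972), with 0.78 within batch 2 and -1.36 within batch 3. Mki67 read -1.42, -1.69 and -1.07 in the estrus libraries of batch 2 and 4.03 in Estrus replicate 4, of batch 3. The last lay inside the metestrus range. Its difference was -3.83 ± 0.99 (SE, adjusted p = 0.244), with -5.53 within batch 2 and 0.36 within batch 3. Without Estrus replicate 4 it was -5.24 with an adjusted p of 0.0267.

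Cdk1 read 0.20, 2.07, -0.21 and 3.18 in estrus, all under the lowest metestrus library. Its difference was -2.91 ± 0.98 (SE, adjusted p = 0.432), with -3.71 and -1.25 within the batches. Plk1 read 5.59, 5.71, 6.11 and 4.66, all over the highest metestrus library, at 3.60 ± 1.13 (SE, adjusted p = 0.377). It stood at 4.66 within batch 2 and 0.91 within batch 3. These were the only non-overlapping members besides Rad51b, 1 in each direction, against 2.31% of all genes lower and 1.02% higher. Rad51b stood at 2.93 ± 0.74 (SE), a description like its other stage values. Top2a stood at -0.82 ± 0.72 (SE), Aurka at 1.24 ± 0.59 (SE), Ccnb1 at 1.46 ± 1.20 (SE) and Mcm6 at 1.23 ± 0.73 (SE).

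Cdkn2c read 9.76, 9.17, 9.23 and 8.79 in estrus against 9.56 through 10.11 to 10.27 in metestrus, and 1 estrus library lay inside that range. It stood at -0.75 ± 0.24 (SE, adjusted p = 0.410), with -0.48 and -1.39 within the batches. All 5 inhibitors, Rb and E2F genes had a negative sign, in batch 2 and in batch 3 alike, down to -0.01 for Rb1. All 8 G1 cyclins and kinases had a positive sign, from 0.01 for Cdk4 to 0.63 for Ccne1. In batch 3 alone 7 of these 8 were negative. Signs over the 38 were 25 positive and 13 negative at a median of 0.19, against -0.07 for all tested genes, and 18 of 38 had the same sign in both batches.

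Males were compared with metestrus females within batch 4, where the comparison rests on 4 and 5 libraries. Of the 38 members 0 passed, against 0.0242% of all tested genes (0.0194% higher and 0.00484% lower), and Ccnf and Rad51b did not pass either. Ranges and overlaps here were taken over all 8 metestrus libraries, also those of batches 2 and 3. Mki67 was the only member of the 38 whose groups did not overlap, higher in males, as 0.853% of all genes did.

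Mki67 read 5.98, 5.99, 6.45 and 5.62 in males, over every other library in the study. Its log2 difference was 2.09 ± 0.86 (SE, adjusted p = 0.9998). Other markers of dividing cells had smaller or opposite differences. Top2a read 5.65, 3.61, 4.26 and 4.79, inside the metestrus range but for its lowest library, at -0.89 ± 0.63 (SE). Cdk1 read 6.65, 3.30, 5.12 and 4.52, at 0.65 ± 0.85 (SE). Ccnb1 stood at 1.11 ± 1.05 (SE).

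Ccnf stood at 0.58 ± 0.52 (SE, adjusted p = 0.9998), and its male SD of 0.15 was the smallest of the 4 groups. Rad51b read 0.37, 0.39, 1.34 and 0.63 in males, all under the limit and under every metestrus library, at -1.38 ± 0.65 (SE, adjusted p = 0.9998), where 0.586% of all genes did not overlap in that direction. Cdkn1a read 10.70, 9.89, 10.13 and 9.43 in males against 8.89 through 9.40 to 10.07 in metestrus, at 0.59 ± 0.26 (SE). Ccnd3 stood at 0.30 ± 0.14 (SE), Ccnd1 at 0.43 ± 0.21 (SE) and Ccnd2 at 0.27 ± 0.18 (SE). Cdc6 stood at -2.58 ± 1.14 (SE), with all 4 male values under the limit. Replication genes were negative for 9 of 10, with Cdc45 at -0.66 ± 0.50 (SE), Mcm6 at -0.62 ± 0.64 (SE) and Pcna at -0.10 ± 0.17 (SE).

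Over the 38 there were 16 positive and 22 negative signs at a median of -0.08, against 0.04 for all tested genes. An unadjusted p under 0.05 was found for 5 members, Mki67, Cdc6, Cdkn1a, Ccnd3 and Ccnd1, against 3.58% of all genes. Cdc6 is no test here, since it needed metestrus, where it was higher, to pass the filter.

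**Figure D4:**
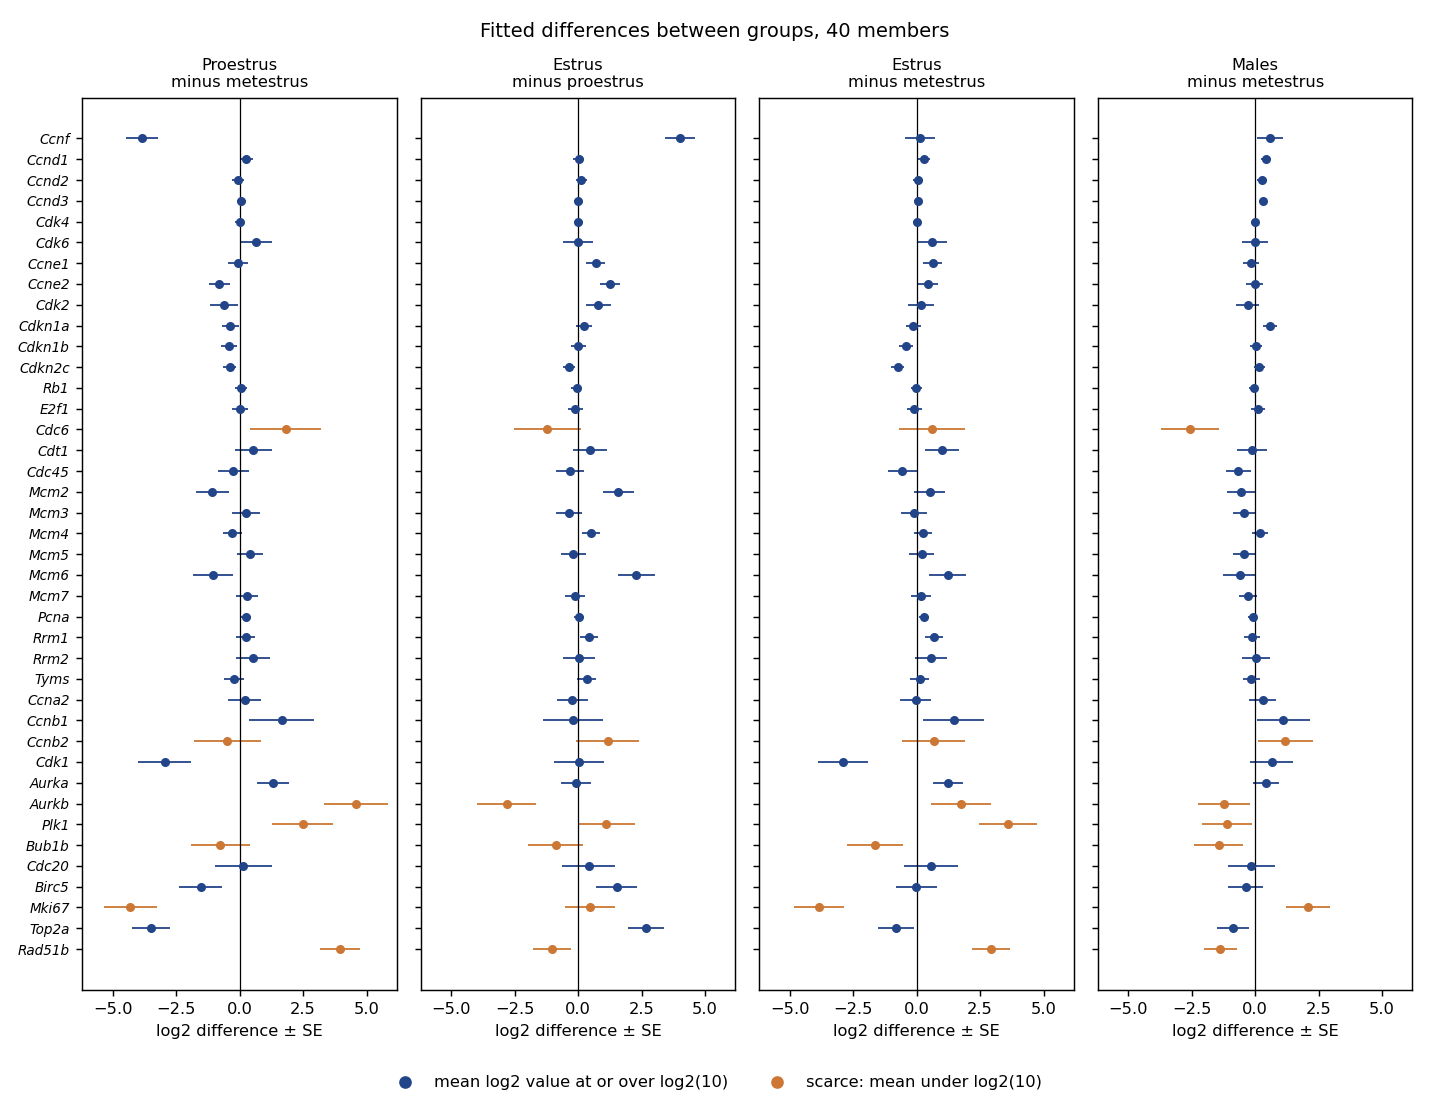
Fitted log2 differences with SE (x axis) of the 40 members (rows) in the 4 comparisons (panels), with the scarce members in orange. Ccnf lies far from 0 in both comparisons with proestrus (-3.86 and 4.00) and near 0 in the others (0.14 and 0.58), and most abundant members lie within 1 of 0. Long bars belong to scarce members and to others of low level, such as Ccnb1 and Cdk1.

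Size of difference went with level. In proestrus against metestrus the median absolute log2 difference was 0.33 for the 32 members over the limit and 2.15 for the 6 scarce members other than Rad51b. In males against metestrus these were 0.28 and 1.34.

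Other genes of the pathway were taken from 7 lists, and 0 of their 132 tested genes passed in limma in any of the 4 comparisons. An unadjusted p under 0.05 was found for 18 of them in proestrus against metestrus, 22 in estrus against proestrus, 8 in estrus against metestrus and 3 in males against metestrus. These are 13.6%, 16.7%, 6.06% and 2.27% of the 132, beside 10.1%, 11.5%, 8.31% and 3.58% of all tested genes. The counts include genes that needed their higher group to pass the filter and are no test. Among these are Stil in both comparisons with proestrus, Cdkn3 and Mcm10 in estrus against metestrus and Exo1 in males against metestrus. The shares are therefore partly set by the filter. Of 9 tested genes for the SCF core and for cyclin F substrates, 6 were positive and 3 negative in proestrus against metestrus, at a median of 0.15. Stil, a centriole duplication gene, stood at 4.76 ± 1.13 (SE), and at -4.60 ± 1.06 (SE) in estrus against proestrus. Stil passed the filter through the 3 proestrus libraries alone, so these values are no test. Of 14 genes for other E2F, pocket protein and DREAM factors 13 were negative in proestrus against metestrus, at a median of -0.18, beside -0.09 for all tested genes. Foxm1, the forkhead activator of mitotic genes, stood at 3.25 ± 1.24 (SE, adjusted p = 0.355) as the only positive. Rbl1, the pocket protein p107, stood at 4.11 ± 0.98 (SE, adjusted p = 0.0840) in estrus against proestrus.

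Among 32 other replication genes 23 were negative in proestrus against metestrus, at a median of -0.21. In estrus against proestrus 24 were positive, at a median of 0.33 beside 0.02 for all tested genes, and these comparisons share the proestrus libraries. Cdc7, the kinase that fires origins, stood at -3.84 ± 0.95 (SE, adjusted p = 0.0880) in the first and at 2.83 ± 0.89 (SE, adjusted p = 0.185) in the second. Of 27 other mitotic genes 14 were positive and 13 negative in proestrus against metestrus, with 6 at an unadjusted p under 0.05. Cdca8, the borealin subunit that acts with Aurkb and Birc5, stood at 3.17 ± 0.74 (SE, adjusted p = 0.0682). Ect2, which starts cytokinesis, stood at 4.97 ± 1.10 (SE, adjusted p = 0.0661) in estrus against proestrus.

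In the 36 other cyclins and kinases 17 were positive and 19 negative in each comparison of the stages. The smallest p-values were those of Cdk13 in proestrus against metestrus (-0.71 ± 0.25 SE, adjusted p = 0.309) and Ccnt2 in estrus against proestrus (-0.86 ± 0.23 SE, adjusted p = 0.127), both genes of complexes that phosphorylate RNA polymerase. Ccny stood at -0.44 ± 0.20 (SE, adjusted p = 0.598) in estrus against metestrus. The other inhibitors held 4 tested genes, and Cdkn1c, the inhibitor p57, stood at 0.75 ± 0.37 (SE, adjusted p = 0.503) in proestrus against metestrus and at -0.92 ± 0.34 (SE, adjusted p = 0.274) in estrus against proestrus. In estrus against metestrus Cdkn3, a phosphatase of cyclin-dependent kinases, stood at 3.07 ± 0.99 (SE) and Mcm10 at -3.85 ± 1.16 (SE), without a test, since Cdkn3 needed estrus and Mcm10 needed metestrus to pass the filter. Cdca8 stood at 2.17 ± 0.69 (SE, adjusted p = 0.392), Palb2 at 2.43 ± 1.35 (SE, adjusted p = 0.648), E2f6 at -0.85 ± 0.31 (SE, adjusted p = 0.489) and Cul1 at 0.40 ± 0.20 (SE, adjusted p = 0.611). In males against metestrus every list's lowest adjusted p was 0.9998, with Kif20b at 2.18 ± 1.02 (SE) and Cdk19 at -0.48 ± 0.18 (SE). Exo1 stood at -2.65 ± 0.92 (SE), without a test, since it needed metestrus, where it was higher, to pass the filter.

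Marker levels of other cells were measured beside these genes, since dividing cells of the brain include oligodendrocyte progenitors. The summed log2 level of 8 progenitor markers ran from 10.72 to 11.21 in metestrus, 10.76 to 11.26 in proestrus, 10.04 to 10.70 in estrus and 11.08 to 11.42 in males. The sum was below metestrus in all 4 estrus libraries, and in proestrus it overlapped that of metestrus. Olig2 reached the highest values of the 8 markers, at 9.23 to 10.22 in metestrus and 8.24 to 9.44 in estrus. A link between the sum and Mki67 was not tested. Of the 8 markers 5 were negative in estrus against metestrus, from Lhfpl3 at -1.74 ± 0.39 (SE, adjusted p = 0.194) to C1ql1 at -0.25. The 3 positive markers were Cspg4 (0.37), Vcan (0.25) and Sox10 (0.16). In proestrus against metestrus 4 were positive and 4 negative. The 7 endothelial and mural markers summed to 9.08 to 9.35 in estrus and 9.70 to 10.12 in metestrus. The 6 neuroblast and neural stem markers were all negative in estrus against metestrus, from -2.42 for Nes to -0.05 for Hes5, at a median of -0.62. Over all libraries Sox2 (11.56 to 13.37) and Hes5 (12.39 to 14.38) read near the astrocyte marker Sox9 (13.28 to 14.28). These markers therefore do not stand for neuroblasts and stem cells alone. Of the 6 ependymal and choroid plexus markers all were negative in proestrus against metestrus, at a median of -1.11. The marker sets of neurons, oligodendrocytes and microglia had medians of 0.10, 0.16 and -0.13 in proestrus against metestrus. In estrus against metestrus all 6 oligodendrocyte markers were positive, at a median of 0.45. In males against metestrus 9 of 10 astrocyte markers were positive, at a median of 0.21. So were 6 of 7 endothelial and mural markers, at 0.51, and 5 of 6 neuroblast and neural stem markers, at 0.19. Of the 6 ependymal and choroid plexus markers 4 were negative there. Of the 57 markers in the 8 lists 0 passed in limma in any comparison, and 4, 9, 8 and 6 had an unadjusted p under 0.05 in the order of comparisons above. These are 7.02%, 15.8%, 14.0% and 10.5% of the markers, beside the shares of all tested genes given for the pathway lists. The part of these cells in the values of the members was not tested.

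The values come from a table that does not state strand, so reads of overlapping genes on opposite strands cannot be told apart. In the GENCODE annotation of GRCm38 the largest such overlaps covered 23.4% of the exons of Ccnd1, 19.7% of Cdk4, 17.4% of Ccne2 and 12.5% of Ccna2. Exons of Ccnf were overlapped over 0.1% by a microRNA gene on its own strand, and those of Mki67, Cdk1, Aurkb and Rad51b by no annotated gene.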

How the data were processed

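Messenger RNA from tagged astrocyte ribosomes was sequenced in 19 libraries. The authors deposited 1 table of log2 values for 21749 genes. Per the submitters' processing notes, STAR, Salmon, edgeR and the build GRCm39 were used, without versions or order. No source used here gives the scaling, the number added before the log or the depth, and the base of 2 was read from the values themselves.

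Groups and batches were taken from the labels. The deposited values were fitted as they are with limma 3.58.1 in R 4.3.3 (limma-trend, robust prior) by group and batch over all 19 libraries, for genes at 3.32 or more in at least 3 libraries. Variation is missing from the table, so 2 missing directions that batch does not span were counted as covariates, which left 11 residual degrees of freedom in place of 13. With batch in the model, stage differences rest on batches 2 and 3 and male differences on batch 4, and other libraries add to the estimate of spread. Tests were two-sided, and a gene passed at a Benjamini-Hochberg adjusted p of 0.05 or less across the 20644 genes fitted. The fit was tested on simulated data. SE is the standard error of the fit and SD that between libraries.

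The members and lists were chosen with earlier results of these data known. Full statistics were given for Ccnf, for members past the threshold, for the 3 largest and 3 smallest differences over the limit in each comparison, for the most abundant member of each role and for the gene of each list with the smallest p. Mki67, Aurkb, Plk1 and further members were named after their values were seen. The values of 1 gene of these lists are not reported here. Motifs were counted as exact matches with Python 3.11.15. Promoters of Aurkb, Ccnd1, Rb1, Ccne2, Ccnd2, Mcm4 and Ccna2 were not used here.

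Alternatives were no filter, values under 3.32 raised to it, libraries centred on their medians, no batch term, the batches of a comparison alone, a prior that is not robust, missing directions not counted and leaving out each library.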

Additional observations from a re-analysis of the deposited data

Results flagged for a closer look

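In the groups of 4 and of 8 libraries, 10 of 120 sets of values held a library far from the others by Dixon's criterion, where chance gives about 6. In estrus, replicate 4 of batch 3 stood apart for Mki67, at 4.03 against -1.69 to -1.07 in the others, for Cdc45, at 3.90 against 6.07 to 6.47, and for Rrm1, at 7.92 against 8.85 to 8.98. Estrus replicate 3 stood apart for Rrm2, at 8.15 against 6.89 to 6.98, and for Cdc6, at 3.67 against 1.25 to 1.38. In males, replicate 1 stood apart for Mcm3, at 5.31 against 5.84 to 5.85, and for Mcm7, at 7.03 against 7.38 to 7.44. Males replicate 2 stood apart for Cdc20, at 5.49 against 3.43 to 3.64, and for Cdc6, at 1.59 against -2.09 to -1.77. Metestrus replicate 3, the batch 3 library of that group, stood apart for Rad51b, at 3.72 against 1.49 to 2.33.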

How the results depend on the processing

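In proestrus against metestrus 75 genes passed. The count was 1 with batches 2 and 3 alone, 204 with missing directions not counted (48 higher, 156 lower) and 280 with no batch term (73 higher, 207 lower). With values under 3.32 raised to it 100 passed, 75 higher and 25 lower. Leaving out 1 library gave 23 to 105, with 23 without Metestrus replicate 1 and 38 without Proestrus replicate 1. Of the 38 members other than Ccnf and Rad51b, 1 passed, with 0 in batches 2 and 3 alone, 0 with libraries centred, 2 with missing directions not counted, 3 with no batch term and 0 to 1 with a library left out. Top2a lost its call in batches 2 and 3 alone (adjusted p = 0.238), with centred libraries (0.0598), with low values raised (0.268) and without Metestrus replicate 1, 2 or 3 or Proestrus replicate 1 or 3 (0.109, 0.0723, 0.0772, 0.138 and 0.110), at differences of -4.21 to -2.96 over the libraries left out. Mki67 passed with missing directions not counted (0.0293), with no batch term (0.0366) and without Metestrus replicate 3 (0.0320). Aurkb was among the 3 and was the 1 member past the threshold with low values raised, which is no support for it, since it entered the fit through the libraries in which it was high. In estrus against proestrus 52 genes passed, 0 in batches 2 and 3 alone in limma (2140 at an unadjusted p under 0.05), 194 with missing directions not counted, 33 with no batch term, 89 with low values raised (33 higher, 56 lower) and 32 to 196 with a library left out: 97 and 196 without Estrus replicates 1 and 4, and 32 and 102 without Proestrus replicates 1 and 3. The members past the threshold were 0, and 0 to 1 with a library left out. In estrus against metestrus 0 genes passed, 18 with missing directions not counted, 54 with no batch term, 10 with low values raised and 0 to 6 with a library left out, and 0 to 1 members. The description of Ccnf in proestrus against metestrus ran from -4.30 to -3.25 with a library left out. The fits of batches 2 and 3 alone had 6 residual degrees of freedom, against 11 with all libraries and with any 1 left out. The causes of these changes were not tested. In males against metestrus 4 to 7 genes passed under all alternatives, beside 5. Titles of batch 4 share 4 numbers between the sexes. In deviations from group means, same-numbered libraries correlated at 0.160, 0.0259, -0.262 and -0.129. The highest correlation with another number was 0.00462, 0.0861, 0.374 and 0.175 in the same order. With 4 libraries per sex and variation missing from the table, these values cannot show whether the numbers pair libraries. The fit with a replicate block on batch 4 passed 4 genes, as many as without the block. Of 1485 alternative values, 0 turned the direction of a called value. Top2a was the only member called, so most of these values could not turn a call. Signs of values that were not called did turn: with a library left out, Mcm6 ran from -2.54 to 0.13 in proestrus against metestrus. With low values raised Rad51b stood at 1.66 in estrus against metestrus, beside 2.93. No counts were given, so the depth behind values under 3.32 is unknown.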
